A study of Mus musculus with 27 samples.

Results

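The livers of 7 mice on an intermittent (INT) diet were compared with those of 7 mice on the control (C) diet, chosen by the diet named in the sample labels, out of 27 liver arrays in all. All were male C57BL/6J mice, an inbred strain, that had eaten their diet from 9 weeks of age until sacrifice at 12 months. C-fed mice ate AIN-93W, a purified low-fat diet, ad libitum. INT-fed mice switched every week between free access to AIN-93W-MF, a medium fat (MF) diet with 25% of its energy from fat, and an energy intake cut by 40% relative to the intake of mice on AIN-93W, and they were killed in a week of free MF feeding. The MF history, the restricted weeks and the diet of the last week therefore cannot be told apart in this comparison. Every animal of both groups had been mock treated, with a 4 h fast, a gavage of 0.5% carboxymethyl cellulose and a further 6 h fast. The 7 mice on continuous MF and the 6 on continuous calorie restriction (CR) serve below only as levels beside the INT and C mice.

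The liver stores dietary fat as triglyceride in cytosolic droplets coated by perilipin and CIDE proteins, and it burns or exports this fat between meals. It makes cholesterol under the transcription factor SREBP-2, turns it into bile acids through the P450 enzymes Cyp7a1 and Cyp7b1, and couples these to taurine. Resident macrophages (Kupffer cells) and recruited macrophages share the tissue with hepatocytes, and inflammatory cytokines raise hepatocyte acute phase proteins. In male rodents the pulsatile release of growth hormone keeps a male set of liver genes active and a female set low, with help from the repressor Bcl6.

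One array was hybridised per mouse, and the values are log2 intensities. For each gene the probe set of highest mean was used, and genes had to exceed an intensity of 20 on 5 or more arrays, as 13603 did. The labelled tissue was checked on hepatocyte markers (16 of 18 tested), whose summed intensity ran from 118900 to 132300 in INT-fed mice and from 120600 to 133800 in C-fed mice, with none of them at an unadjusted p under 0.05. Of 18 listed pancreatic markers 13 were measured and 3 passed the intensity minimum. Of 11 erythroid markers only 3 were measured and 2 passed. Their summed intensity was 716 to 887 in INT-fed mice and 614.8 to 964.3 in C-fed mice. Pearson's r between any 2 of the 14 arrays lay between 0.987 and 0.991. Interquartile ranges of the C arrays were 3.61 to 3.64 log2 units for replicates 1 to 4 and 3.70 to 3.74 for replicates 5 to 7, against 3.62 to 3.69 and 3.64 to 3.76 for the INT arrays. The labels name no batch, so values within each of these sets of replicate numbers are given beside some of the results.

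Between INT- and C-fed mice no gene passed the threshold of an adjusted p under 0.05. The limma test called 0 of 13603 genes, and the lowest adjusted p was 0.119. At an unadjusted p under 0.05 there were 922 genes (6.78% of those tested), 537 with a higher mean (3.95%) and 385 with a lower mean (2.83%) in INT-fed mice. This split toward higher means depended on the scaling, since median centring gave 435 higher and 481 lower and cyclic loess 485 and 471. The methods' own test across diets, with Tukey's correction, gave 141 higher and 82 lower at its unadjusted 0.05 and also called 0 genes after adjustment. In 35 genes (0.257%) the INT and C values did not overlap, with 22 genes higher (0.162%) and 13 lower (0.0956%) in INT-fed mice. Differences were small for most genes, with a median absolute log2 difference of 0.06, and 0.118% of genes differed at least 2-fold, 4 higher and 12 lower in INT-fed mice.

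**Figure D1:**
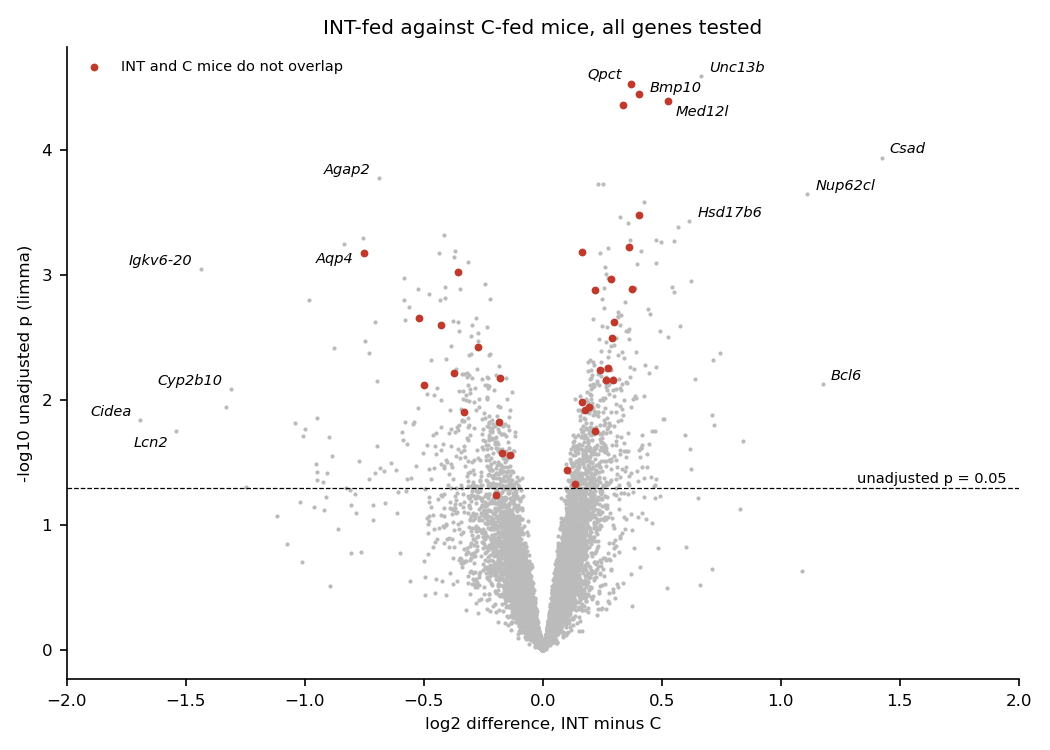
Each of the 13603 genes is plotted by its log2 difference (INT minus C, x axis) and the -log10 of its unadjusted limma p (y axis, dashed line at 0.05). Red points are the 35 genes whose 7 INT and 7 C values do not overlap, and named genes include Csad at 1.42, which did not pass the adjusted threshold.

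Over all genes at once, the distance between diets was slightly above the mean of the distances within diets, and below that among C-fed mice. The mean squared log2 distance per gene was 0.0857 between an INT and a C mouse, 0.0700 between INT mice and 0.0878 between C mice. The separation (distance between diets minus the mean of the within-diet distances) was 0.00674, with an exact permutation p of 0.0216 over 3432 splits of the 14 mice. Without C replicate 5 the separation was 0.00378 and without INT replicate 5 it was 0.00524, with exact permutation p-values of 0.0618 and 0.0548. Distances of the mice from the centre of their diet averaged 0.173 in INT and 0.192 in C (exact permutation p = 0.258), and C replicates 5 and 6 lay farthest out at 0.231 and 0.233.

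The 5 genes of lowest p all had a higher mean in INT-fed mice, and 4 of them had groups that did not touch. Unc13b, a priming factor for vesicle release, stood at 6.56 to 7.37 (median 6.85) in INT-fed mice and 5.68 to 6.73 (median 6.30) in C-fed mice. The log2 difference was 0.66 (SE 0.13, adjusted p = 0.119), and the groups overlapped only between their outer mice. Qpct encodes glutaminyl cyclase, which closes the amino end of peptides into pyroglutamate. Its values were 6.69 to 7.23 (median 6.83) in INT-fed mice and 6.39 to 6.61 (median 6.45) in C-fed mice, a difference of 0.37 (SE 0.07, adjusted p = 0.119) without overlap. Bmp10 is a secreted ligand of the ALK1 receptor made by hepatic stellate cells. It measured 5.86 to 6.35 (median 6.10) in INT-fed mice and 5.38 to 5.85 (median 5.68) in C-fed mice, and the lowest INT mouse sat just above the highest C mouse. The difference for Bmp10 was 0.40 (SE 0.08, adjusted p = 0.119). Med12l, a paralogue of the Mediator subunit Med12, read 5.24 to 5.57 (median 5.27) in INT-fed mice and 4.49 to 4.99 (median 4.91) in C-fed mice, a difference of 0.52 (SE 0.11, adjusted p = 0.119). Csrp2, a LIM-domain protein of stellate and smooth muscle cells, read 8.60 to 8.76 (median 8.68) in INT-fed mice and 8.09 to 8.56 (median 8.32) in C-fed mice, a difference of 0.34 (SE 0.07, adjusted p = 0.119). Neither of these last genes had any INT mouse at or below a C mouse.

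The gene of largest positive difference was Csad. It encodes cysteine sulfinic acid decarboxylase, which commits cysteine to taurine, and read 8.78 to 10.41 (median 9.60) in INT-fed mice and 6.85 to 9.15 (median 8.17) in C-fed mice. Its difference was 1.42 (SE 0.32, adjusted p = 0.259), and 1 C mouse overlapped the INT range, C replicate 1 at 9.15, above INT replicates 4, 6 and 7. Nup62cl, a nucleoporin-like gene near the intensity minimum in C-fed mice (2 of 7 below it), read 5.27 to 6.40 (median 5.85) in INT-fed mice and 4.18 to 5.34 (median 4.89) in C-fed mice, a difference of 1.11 (SE 0.26, adjusted p = 0.291). Hsd17b6, an oxidoreductase that acts on androgens and retinoids, had 10.95 to 11.75 (median 11.26) in INT-fed mice and 10.22 to 11.11 (median 10.75) in C-fed mice, and differed by 0.62 (SE 0.15, adjusted p = 0.291). Enho, which encodes the secreted peptide adropin, had 5.35 to 5.98 (median 5.58) in INT-fed mice and 4.89 to 5.45 (median 5.04) in C-fed mice. Its difference was 0.57 (SE 0.14, adjusted p = 0.291), and C replicate 6 was the 1 C mouse above the lowest INT values. Further genes of this set were Peg3, an imprinted zinc finger gene, at 0.43 (SE 0.10, adjusted p = 0.291), Asap3, an Arf GTPase-activating protein, at 0.41 (SE 0.10, adjusted p = 0.291) without overlap, and Car5b, a mitochondrial carbonic anhydrase, at 0.37 (SE 0.10, adjusted p = 0.345) without overlap.

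**Figure D2:**
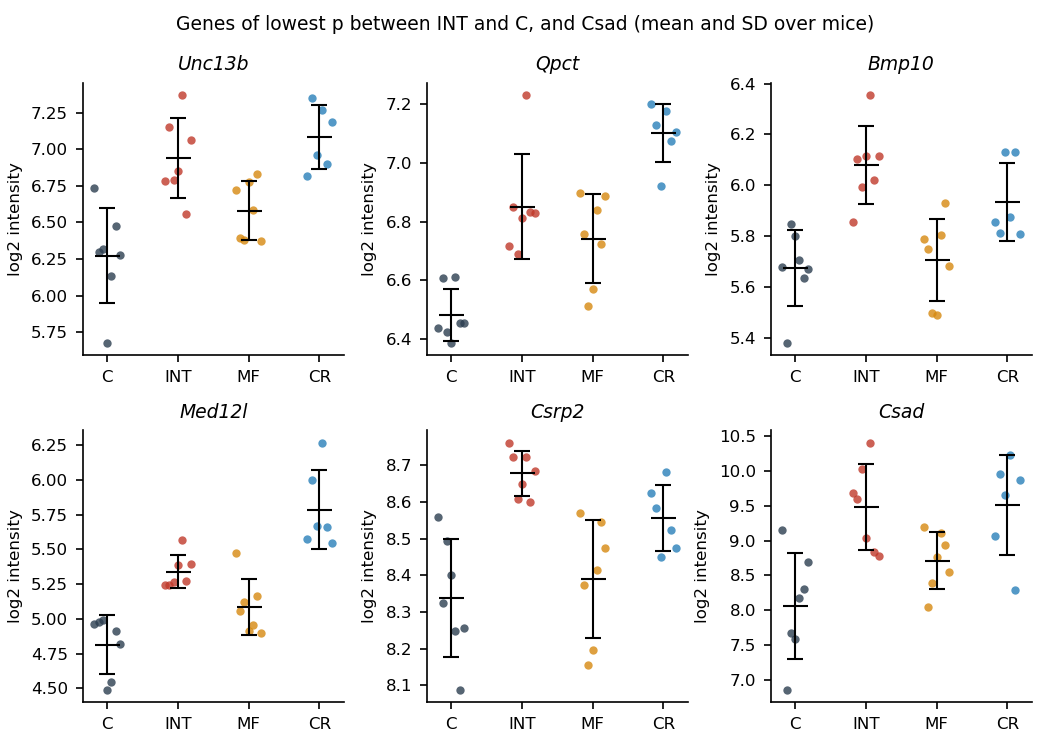
Log2 intensity (y axis) of Unc13b, Qpct, Bmp10, Med12l, Csrp2 and Csad in every mouse of the C, INT, MF and CR diets (x axis), with black bars for mean and SD. INT mice lie above C mice without overlap in Qpct, Bmp10, Med12l and Csrp2, and CR means are at or above the INT mean in Unc13b, Qpct, Med12l and Csad.

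Levels on the other diets put these genes in different orders. Mean Csad was 9.48 in INT, 8.06 in C, 8.71 in MF and 9.51 in CR. The INT and CR means differed by -0.03 (adjusted p = 0.97). Unc13b likewise read 6.94 in INT and 7.08 in CR, with MF at 6.58. Med12l and Hsd17b6 were lower in INT than in CR, with log2 differences of -0.45 (adjusted p = 0.00614) and -0.61 (adjusted p = 0.00775), and so was Qpct, at -0.25 (adjusted p = 0.0257). Their INT means of 5.34, 11.30 and 6.85 thus lay between the C and the CR means. Bmp10 and Csrp2 had their highest mean in INT, at 6.08 and 8.68, with 5.94 and 8.56 in CR, differences from CR that did not pass (adjusted p = 0.287 and 0.286). Across all genes the same fit called 2039 (15%) between INT and CR and 0 (0%) between INT and MF. These comparisons share the INT mice, so they are not independent of the difference from C.

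The genes of lowest p in the other direction were led by Agap2, a GTPase-activating protein that enhances PI3-kinase signalling. It read 4.97 to 6.20 (median 5.53) in INT-fed mice and 5.77 to 6.63 (median 6.37) in C-fed mice, a difference of -0.69 (SE 0.16, adjusted p = 0.281). Rhbg, a pericentral ammonium transporter, read 5.53 to 6.48 (median 6.05) in INT-fed mice and 6.40 to 7.29 (median 6.84) in C-fed mice, a difference of -0.83 (SE 0.21, adjusted p = 0.291), and only the upper INT mice reached the lower C mice. Ntrk2, the receptor of the neurotrophin BDNF, read 5.07 to 6.00 (median 5.37) in INT-fed mice and 5.72 to 6.92 (median 6.29) in C-fed mice, a difference of -0.76 (SE 0.19, adjusted p = 0.291), with -0.48 among replicates 1 to 4 and -1.12 among replicates 5 to 7. The water channel Aqp4 read 5.16 to 5.85 (median 5.76) in INT-fed mice and 5.86 to 7.09 (median 6.17) in C-fed mice, a difference of -0.75 (SE 0.20, adjusted p = 0.291), and its groups did not overlap, although by a margin under 0.01. Cyp4f16, a fatty acid hydroxylase, also lacked overlap, at -0.36 (SE 0.10, adjusted p = 0.335). Several others are genes of myeloid cells. Csf3r, the receptor for granulocyte colony-stimulating factor, differed by -0.41 (SE 0.10, adjusted p = 0.291). Pirb, an inhibitory receptor of myeloid and B cells, differed by -0.37 (SE 0.10, adjusted p = 0.291), and Capg, an actin-capping protein of macrophages, by -0.58 (SE 0.16, adjusted p = 0.343). Without overlap were Mpeg1, the macrophage pore-former perforin-2, at -0.52 (SE 0.15, adjusted p = 0.418), Pla2g7, the platelet-activating factor acetylhydrolase of macrophages, at -0.50 (SE 0.17, adjusted p = 0.544), and Clec4n, the receptor Dectin-2, at -0.37 (SE 0.13, adjusted p = 0.544). Rassf4, a Ras-association protein, was also without overlap, at -0.43 (SE 0.13, adjusted p = 0.421).

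Genes that coat and fuse lipid droplets lay on the low side in INT-fed mice as a list, with the highest levels in a few C-fed mice. All 17 tested droplet genes had a value below 0, against 47.7% of all genes, with a median of -0.14 against 0.01 for all genes. At an unadjusted p under 0.05, 3 were lower (2.83% of all genes). Both counts include Cidea, which was below the intensity minimum in 6 of 7 INT mice, so its p is not read as a result. With cyclic loess 15 were below 0. Without C replicate 4, C replicate 5 or INT replicate 3 the counts were 14, 15 and 16 and the medians -0.11, -0.09 and -0.08. By mean over the list, C replicates 4, 5 and 7 stood at 9.34, 9.50 and 9.26, above every INT mouse. The other C mice, at 8.77 to 9.05, lay within the INT range of 8.47 to 9.15. No count was taken without C replicates 4, 5 and 7 together. Cidea, a CIDE protein that enlarges droplets, read 3.68 to 4.69 (median 3.92) in INT-fed mice and 3.70 to 7.84 (median 5.08) in C-fed mice. C replicates 4, 5 and 7 stood at 7.55, 7.84 and 7.10, while the other C mice lay between 3.70 and 5.08 and 6 of 7 INT mice were below the intensity minimum. Cidea passed the filter through 5 C and 5 MF mice and 1 INT mouse, so its log2 difference of -1.69 rests on INT values under the minimum and is given without a test. Cidec, the fat-specific protein of unilocular droplets, read 6.20 to 9.26 (median 7.48) in INT-fed mice and 7.35 to 10.26 (median 8.75) in C-fed mice, a difference of -1.24 (SE 0.60, adjusted p = 0.731). The same 3 C mice held its highest C values, but INT replicate 1 at 9.26 was above 5 of 7 C mice. Within the sets the Cidec difference was -0.40 among replicates 1 to 4 and -2.38 among replicates 5 to 7. Plin4, a perilipin of nascent droplets, differed by -0.71 (SE 0.41, adjusted p = 0.769), with -0.25 among replicates 1 to 4 and -1.34 among replicates 5 to 7, and Hsd17b13, a droplet-bound retinol dehydrogenase, by -0.25 (SE 0.10, adjusted p = 0.646). The droplet genes overlapped between diets in every case. Mean Cidec was 8.98 in MF and 5.54 in CR, and INT exceeded CR by 1.79 (adjusted p = 0.0537).

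Of 23 genes of triglyceride synthesis and lipolysis, 17 had values below 0 (47.7% of all genes). In either direction 8.7% were at an unadjusted p under 0.05, near the 6.78% of all genes, with 2 genes lower. These were Lpin1, a phosphatidate phosphatase and coactivator, at -0.59 (SE 0.24, adjusted p = 0.66), and Pnpla3, the droplet lipase known from human fatty liver, at -0.48 (SE 0.21, adjusted p = 0.709). Mogat1, a monoacylglycerol acyltransferase, ran 3.66 to 5.25 (median 4.76) in INT-fed mice and 4.03 to 6.64 (median 4.89) in C-fed mice, and its difference was -0.45 (SE 0.40, adjusted p = 0.856), with 0.18 among replicates 1 to 4 and -1.28 among replicates 5 to 7. Cd36, which takes up long-chain fatty acids in hepatocytes and macrophages, ran 8.41 to 9.97 (median 9.15) in INT-fed mice and 8.96 to 11.19 (median 9.96) in C-fed mice. The Cd36 difference was -0.90 (SE 0.36, adjusted p = 0.649), with -0.41 among replicates 1 to 4 and -1.55 among replicates 5 to 7. Fgf21, a fasting hormone of the liver, differed by 0.11 (SE 0.16, adjusted p = 0.916), with 0.24 among replicates 1 to 4 and -0.05 among replicates 5 to 7. These groups overlapped widely.

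Fatty acid synthesis genes held no common direction, with 6 of 17 above 0 and 11 below. Mid1ip1, an activator of acetyl-CoA carboxylase, was at 0.41 (SE 0.17, adjusted p = 0.66), and Acacb, the mitochondrial carboxylase that limits fatty acid entry, at -0.43 (SE 0.19, adjusted p = 0.697), with -0.15 among replicates 1 to 4 and -0.80 among replicates 5 to 7. Among elongases and desaturases 14 of 17 were below 0 (47.7% of all genes). They included the fatty acid desaturases Fads2 at -0.18 (SE 0.06, adjusted p = 0.544) and Fads1 at -0.15 (SE 0.06, adjusted p = 0.646). Fatty acid oxidation and ketogenesis had 22 of 31 genes above 0 (52.3% of all genes) with a median of 0.04. None of them reached an unadjusted p under 0.05 in either direction.

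Cholesterol genes leaned the other way from the droplet genes. Of 26 tested genes of cholesterol synthesis and uptake, 21 had values above 0, where 52.3% of all genes did, and the median was 0.17. Only 2 reached an unadjusted p under 0.05, both higher (7.69%, against 6.78% of all genes in either direction). Srebf2, which encodes SREBP-2 itself, ran 8.36 to 9.09 (median 8.66) in INT-fed mice and 8.23 to 8.62 (median 8.38) in C-fed mice, a difference of 0.27 (SE 0.09, adjusted p = 0.544). Stard4, a carrier of cholesterol between membranes, differed by 0.43 (SE 0.20, adjusted p = 0.724). Msmo1, a sterol methyl oxidase, was at 0.47 (SE 0.24, adjusted p = 0.737) and Hmgcs1, the cytosolic HMG-CoA synthase, at 0.38 (SE 0.26, adjusted p = 0.824). INT replicate 3 was the highest of the 14 mice in 16 of the 26 genes, and C replicates 4 and 6 were the lowest in 7 and 6. Without INT replicate 3 the count above 0 was 18 and the median 0.07. The list had a median of 0.52 for CR minus C and 0.01 for MF minus C, comparisons that share the C mice.

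SREBP-2 acts through the sterol regulatory element, searched here on both strands in the letters TCACNCCAC in 300-base promoter windows of RefSeq genes on GRCm38.p6. Of 32851 windows 408 held a match (1.24%). Counted by gene, 388 of 27025 held one (1.44%), and of the 21 cholesterol genes with a window 1 did. It is shown because Hmgcs1 is a known SREBP-2 target, with the matched letters in capitals, on the plus strand at chr13:119690101-119690400, the match starting at -137 relative to the transcription start.
Hmgcs1 promoter: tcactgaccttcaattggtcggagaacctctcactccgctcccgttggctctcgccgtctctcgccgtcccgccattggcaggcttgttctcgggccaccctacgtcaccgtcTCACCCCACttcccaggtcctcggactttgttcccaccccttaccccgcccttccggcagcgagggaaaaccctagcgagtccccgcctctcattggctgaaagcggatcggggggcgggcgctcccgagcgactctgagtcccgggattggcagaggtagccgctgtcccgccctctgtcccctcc
A match is a description of these letters and no evidence of binding. Hmgcs1 itself ran 8.97 to 10.53 (median 9.33) in INT-fed mice and 8.37 to 10.18 (median 9.22) in C-fed mice, and the groups overlapped over most of their range.

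Bile acid genes pointed the same way as cholesterol genes in count. Of 27 tested, 21 were above 0 (52.3% of all genes) and 3 were higher at an unadjusted p under 0.05 (3.95% of all genes). Cyp7a1, which sets the pace of bile acid formation, ran 10.92 to 12.03 (median 11.15) in INT-fed mice and 10.10 to 11.15 (median 10.54) in C-fed mice, a difference of 0.72 (SE 0.28, adjusted p = 0.646) that was 0.72 within each set of replicates. Cyp7b1, the oxysterol hydroxylase of the alternative route, ran 10.79 to 11.70 (median 11.40) in INT-fed mice and 9.96 to 11.91 (median 10.67) in C-fed mice, a difference of 0.62 (SE 0.28, adjusted p = 0.709). Baat, which joins bile acids to taurine or glycine, differed by 0.16 (SE 0.07, adjusted p = 0.724). The list of taurine, cysteine and methionine genes had a median of only 0.01. In it 4 of 27 genes were higher at an unadjusted p under 0.05 (3.95% of all genes) and none lower. Besides Csad and Baat these were Slc6a6, the taurine transporter, at 0.35 (SE 0.16, adjusted p = 0.702), and Cth, the cystathionine lyase that makes cysteine, at 0.21 (SE 0.10, adjusted p = 0.73). Mean Slc6a6 was 9.25 in INT, 8.89 in C, 8.97 in MF and 9.71 in CR. Mean Cyp7b1 was 11.27, 10.64, 10.34 and 8.91 in the same order, so CR lay lowest there.

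**Figure D3:**
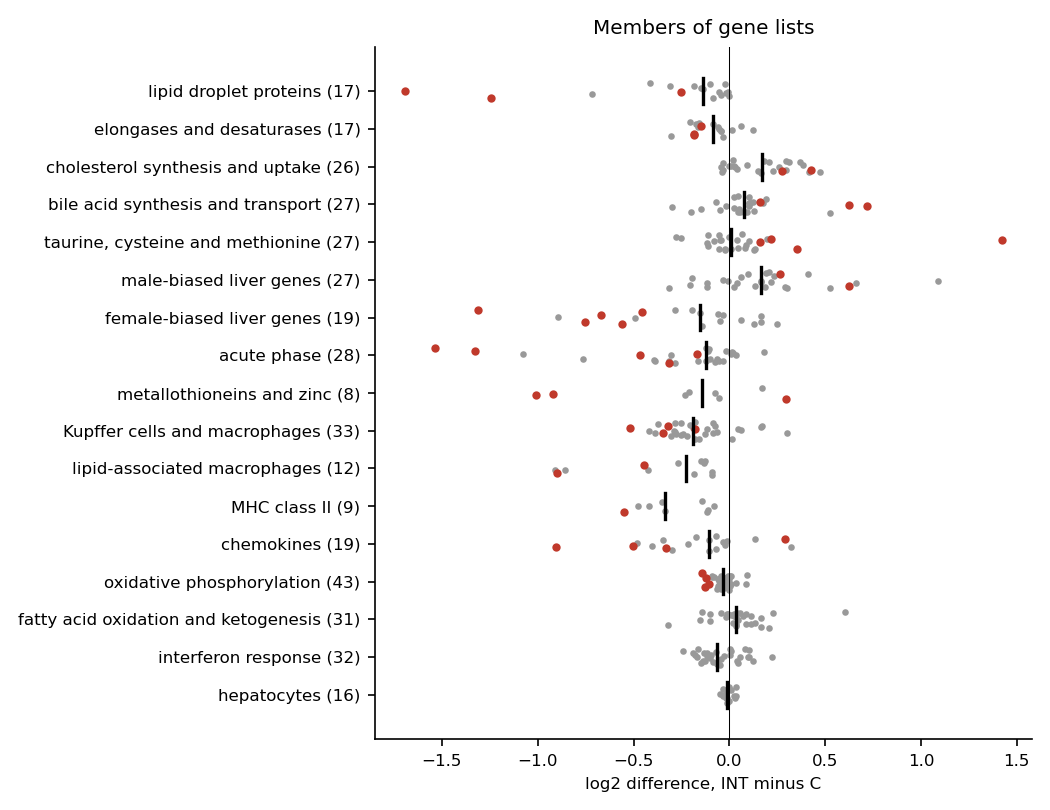
Each point is a tested gene, placed by its log2 difference (INT minus C, x axis) in its list (y axis, number of tested genes in brackets). Black bars mark the list medians and red points an unadjusted p under 0.05, of which none passed adjustment. All droplet, lipid-associated macrophage and MHC class II genes lie below 0, and 21 of 26 cholesterol genes above. Of those below, Cidea, Gpnmb, H2-Eb2 and H2-Oa were under the intensity minimum in most INT mice.

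Macrophage genes were lower on average in INT-fed mice. In bulk liver, fewer macrophages and less of their RNA per cell cannot be told apart. Of 33 Kupffer cell and macrophage markers 27 had values below 0 (47.7% of all genes), with a median of -0.19. At an unadjusted p under 0.05, 4 were lower (2.83% of all genes). Only Mpeg1 had groups without overlap, at 7.86 to 8.24 (median 8.07) in INT-fed mice and 8.27 to 9.02 (median 8.47) in C-fed mice. The summed intensity of the 33 markers was 10930 to 14250 in INT-fed mice and 12590 to 18690 in C-fed mice. Other members were Itgam, the integrin CD11b, at -0.32 (SE 0.12, adjusted p = 0.567), Lyz2, the macrophage lysozyme, at -0.35 (SE 0.15, adjusted p = 0.68), Adgre1, a surface antigen of mouse macrophages, at -0.29 (SE 0.15, adjusted p = 0.737), and Cd68, a lysosomal glycoprotein, at -0.30 (SE 0.20, adjusted p = 0.824). The Cd68 difference was -0.09 among replicates 1 to 4 and -0.58 among replicates 5 to 7, and -0.14 without C replicate 5. C replicate 5 was the highest of the 14 mice in 23 of the 33 markers and INT replicate 7 the lowest in 20. Without C replicate 5, 26 markers were below 0 and the median was -0.12. Their part in the differences of Csf3r, Capg and Pla2g7 was not tested.

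All 12 tested genes of lipid-associated macrophages, the state that gathers around fat-laden cells, had values below 0 (47.7% of all genes). Their median was -0.22, and here 1 mouse stood out. Gpnmb, a lysosomal glycoprotein of these cells, ran 3.41 to 3.95 (median 3.67) in INT-fed mice and 3.56 to 7.29 (median 4.09) in C-fed mice, and every INT mouse was below the intensity minimum. It passed the filter through 3 C and 5 MF mice, so no difference is given for it, and it is 1 of the 12. Mmp12, macrophage elastase, ran 4.55 to 5.15 (median 4.95) in INT-fed mice and 4.44 to 8.73 (median 5.14) in C-fed mice. C replicate 5 held the top value of both and of 10 of the 12 genes. Without this mouse 10 of the 12 were below 0, with a median of -0.16. The Mmp12 difference was -0.86 (SE 0.51, adjusted p = 0.78), with -0.19 among replicates 1 to 4 and -1.74 among replicates 5 to 7, and -0.36 without C replicate 5. Lgals3, the galectin of activated macrophages, differed by -0.45 (SE 0.19, adjusted p = 0.669), with -0.21 among replicates 1 to 4 and -0.76 among replicates 5 to 7, and by -0.29 without C replicate 5. Among chemokines 16 of 19 had values below 0 (47.7% of all genes). Ccl2, which draws monocytes, was at -0.34 (SE 0.20, adjusted p = 0.774) and Ccl3 at -0.40 (SE 0.24, adjusted p = 0.774). The neutrophil chemokine Cxcl1 was at -0.91 (SE 0.42, adjusted p = 0.711), with -1.31 among replicates 1 to 4 and -0.37 among replicates 5 to 7. Cxcl12, a stromal chemokine, lay on the other side at 0.29 (SE 0.11, adjusted p = 0.604).

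Lymphoid and antigen-presentation genes were also lower on average. All 9 tested MHC class II genes were below 0 (47.7% of all genes), with a median of -0.34, and C replicate 5 was highest in all 9. Of these, H2-Eb2 and H2-Oa were below the intensity minimum in most INT mice. Without C replicate 5 the median of the 9 was -0.21, and without INT replicate 3 it was -0.22. H2-Eb1 ran 8.05 to 9.26 (median 8.59) in INT-fed mice and 8.66 to 10.28 (median 9.03) in C-fed mice, a difference of -0.55 (SE 0.26, adjusted p = 0.724), and H2-Aa differed by -0.48 (SE 0.27, adjusted p = 0.769). Immunoglobulin genes were grouped by symbol after their values had been seen. Of 15 tested, including the joining chain, all had a lower mean in INT-fed mice. Igkv6-20 and Igkv8-30 were below the intensity minimum in most INT mice, so the count includes genes that passed the filter mainly through other mice. Igkv6-20, a kappa variable segment, ran 3.70 to 4.26 (median 3.97) in INT-fed mice and 4.11 to 7.12 (median 4.80) in C-fed mice. All 7 INT mice were below the intensity minimum and the gene passed the filter through 6 C, 2 MF and 1 CR mice, so no difference is given for it. C replicate 4 exceeded every INT mouse in 15 of the 15 genes and C replicates 1 and 5 each in 11, while C replicate 2 did in 0. Without C replicate 4 all 15 stayed below 0, with a median of -0.45 in place of -0.79. In Igkc, the kappa constant segment, those 3 mice stood at 9.67, 9.94 and 8.19, and INT replicate 3 reached 8.08. Segments of this family share sequence, so signal of one on the probe set of another is uncertain. The 17 tested markers of T, B and NK cells, a list that also holds Igkc, Ighm and Jchain, had a median of -0.10 and a summed intensity of 554.4 to 848.2 in INT and 530.9 to 1935 in C.

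**Figure D4:**
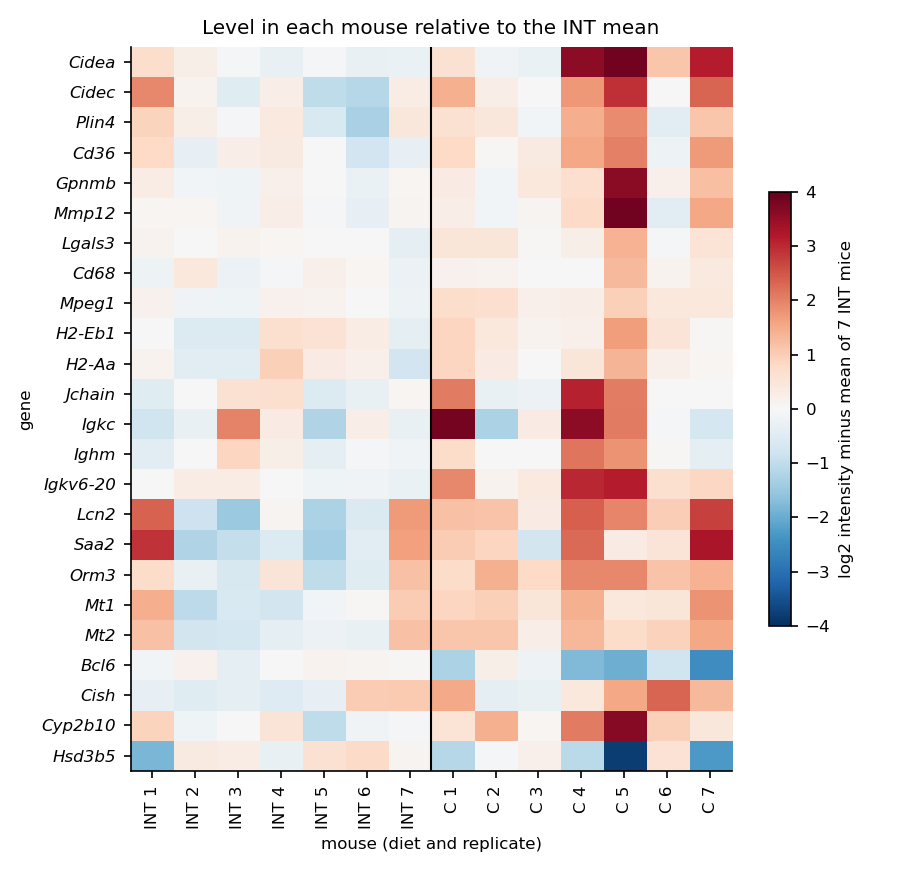
Log2 intensity of named genes (y axis) in the 7 INT and 7 C mice (x axis), minus the mean of the INT mice, from blue (lower) to red (higher). Among C mice, droplet genes are highest in replicates 4, 5 and 7, Gpnmb and Mmp12 in replicate 5, and immunoglobulin genes in replicates 1, 4 and 5. Cidec in INT replicate 1 is above C replicate 4, and Ighm in INT replicate 3 is above C replicate 1. Lcn2, Saa2, Mt1 and Mt2 are also high in INT replicates 1 and 7.

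Acute phase genes were lower in 5 of 28 cases at an unadjusted p under 0.05 (2.83% of all genes) and higher in none. Of their values 23 lay below 0 (47.7% of all genes). C replicate 7 was the highest of the 14 mice in 16 of the 28 genes, and INT replicate 3 the lowest in 8. Lcn2, which binds bacterial siderophores, ran 7.93 to 11.78 (median 8.84) in INT-fed mice and 9.77 to 12.17 (median 10.60) in C-fed mice, a difference of -1.54 (SE 0.61, adjusted p = 0.646). INT replicates 1 and 7, at 11.78 and 11.13, were within the C range, and the other INT mice were below all C mice. Orm3, an acid glycoprotein, ran 4.95 to 7.15 (median 5.69) in INT-fed mice and 6.71 to 7.90 (median 7.36) in C-fed mice, a difference of -1.33 (SE 0.49, adjusted p = 0.604). Saa2, a serum amyloid, differed by -1.08 (SE 0.71, adjusted p = 0.817), and Cebpd, a transcription factor of this response, by -0.32 (SE 0.12, adjusted p = 0.635). For Saa2, leaving out each mouse in turn gave -1.56 to -0.71, and INT replicate 1, at 11.84, was below only C replicate 7, at 12.21. Metallothioneins, the zinc-binding proteins raised by metals and stress, were likewise high in INT replicates 1 and 7. Mt2 ran 10.87 to 12.78 (median 11.31) in INT-fed mice and 11.88 to 13.16 (median 12.72) in C-fed mice, a difference of -1.01 (SE 0.41, adjusted p = 0.649), and Mt1 differed by -0.92 (SE 0.44, adjusted p = 0.73). Slc30a1, which exports zinc from the cell, lay on the other side at 0.30 (SE 0.10, adjusted p = 0.544). Mean Mt2 in MF and CR was 12.52 and 10.61. Timp1, the inhibitor of matrix proteases, was below the intensity minimum in 6 of 7 INT and 4 of 7 C mice. Of 33 matrix and fibrosis genes none reached an unadjusted p under 0.05.

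Among p53 targets and growth arrest genes 3 of 17 were lower at an unadjusted p under 0.05 (2.83% of all genes). Btg2, an antiproliferative immediate early gene, ran 6.48 to 7.46 (median 7.00) in INT-fed mice and 6.81 to 8.56 (median 7.83) in C-fed mice, a difference of -0.88 (SE 0.28, adjusted p = 0.492), with -0.56 among replicates 1 to 4 and -1.29 among replicates 5 to 7. Gadd45g, a growth arrest gene, differed by -0.95 (SE 0.45, adjusted p = 0.724). Cdkn1a, the cell cycle inhibitor p21, was at -1.01 (SE 0.76, adjusted p = 0.841) with INT values from 5.77 to 9.80, and the difference was -0.34 among replicates 1 to 4 and -1.90 among replicates 5 to 7. No gene of the 21 tested cell cycle genes reached an unadjusted p under 0.05.

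Sex-biased liver genes split by direction. Of 27 tested male-biased genes 20 were above 0 (52.3% of all genes), with a median of 0.17. At an unadjusted p under 0.05, 2 were higher and none lower (7.41%, near the 6.78% of all genes). Of 19 female-biased genes 14 were below 0 (47.7% of all genes), with a median of -0.15. Among them 5 were lower and none higher at an unadjusted p under 0.05 (26.3%). Cyp2b13 and Hao2, of the female-biased genes, were below the intensity minimum in every INT mouse. Bcl6 ran 8.82 to 9.38 (median 9.24) in INT-fed mice and 6.71 to 9.43 (median 7.93) in C-fed mice. INT mice clustered tightly, while C mice covered both the INT level and values far beneath it. The difference was 1.18 (SE 0.41, adjusted p = 0.544), with 0.68 among replicates 1 to 4 and 1.84 among replicates 5 to 7. Cish, a growth hormone-induced feedback inhibitor of STAT5, went the other way at -0.92 (SE 0.50, adjusted p = 0.753). Cyp2b10, an inducible P450 with higher levels in females, ran 3.63 to 5.52 (median 4.58) in INT-fed mice and 4.71 to 8.29 (median 5.59) in C-fed mice, a difference of -1.31 (SE 0.46, adjusted p = 0.546), with -0.73 among replicates 1 to 4 and -2.09 among replicates 5 to 7. Without C replicate 5 the Cyp2b10 difference was -0.92. Hamp2, a hepcidin paralogue, differed by -0.56 (SE 0.16, adjusted p = 0.391). Hsd3b5, a male-specific steroid reductase, ran 8.67 to 11.28 (median 10.81) in INT-fed mice and 6.71 to 11.09 (median 9.42) in C-fed mice, and its difference was 1.09 (SE 0.89, adjusted p = 0.846), with 0.16 among replicates 1 to 4 and 2.33 among replicates 5 to 7, and 0.64 without C replicate 5. C replicate 5, the mouse of highest droplet list mean (9.50), had the lowest Hsd3b5 and the highest Cyp2b10.

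Between INT and CR, Cyp2b10 and Bcl6 passed the test. Hsd3b5 averaged 10.51 in INT, 9.42 in C, 8.05 in MF and 3.60 in CR. It was above the intensity minimum in only 1 of 6 CR mice. Its INT minus CR difference of 6.91 thus rests on CR values under the minimum and is given without a test. Cyp2b10 averaged 4.64, 5.95, 6.88 and 8.12 in the same order, so INT was lowest, with a log2 difference from CR of -3.49 (adjusted p = 7.8e-06). Bcl6 averaged 8.56 in MF and 7.93 in CR, and INT exceeded CR by 1.27 (adjusted p = 0.0408). From MF, Cyp2b10 differed by -2.24 and Hsd3b5 by 2.46, neither past the threshold (adjusted p = 0.224 and 0.365).

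Zonal and secreted factors lay on both sides of 0 without calls. Among 19 pericentral hepatocyte genes 3 were higher and 2 lower at an unadjusted p under 0.05 (3.95% and 2.83% of all genes). Tbx3, a Wnt-dependent transcription factor, was at 0.51 (SE 0.19, adjusted p = 0.635), with 0.04 among replicates 1 to 4 and 1.13 among replicates 5 to 7. Rnf43, a Wnt feedback ubiquitin ligase, was at 0.47 (SE 0.22, adjusted p = 0.724), with -0.01 among replicates 1 to 4 and 1.13 among replicates 5 to 7. Cyp1a2, a pericentral P450, was at 0.31 (SE 0.13, adjusted p = 0.66). Rhbg and Oat, the ornithine aminotransferase, were the lower pair, with Oat at -0.31 (SE 0.11, adjusted p = 0.546). Of 25 hepatokines and secreted hormones 4 were higher and 1 lower at that p (3.95% and 2.83% of all genes). Bmp10 and Enho were the first by p. Igfbp2, an IGF-binding protein, was at 0.47 (SE 0.23, adjusted p = 0.73), with 0.06 among replicates 1 to 4 and 1.02 among replicates 5 to 7. Bmp10 and Cxcl12 also stand among 17 tested stellate cell markers. Of these markers 3 were higher at an unadjusted p under 0.05 (3.95% of all genes) and 12 above 0 (52.3%). Their summed intensity was 12180 to 13950 in INT and 11450 to 13700 in C. Among apolipoproteins Apoa4 was at -0.39 (SE 0.12, adjusted p = 0.485) and Apoc2, the cofactor of lipoprotein lipase, at -0.22 (SE 0.08, adjusted p = 0.544).

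Beyond the means, the spread between mice was compared by a limma test on absolute deviations from the diet mean. It called 6 of 13603 genes (0.0441%), 5 with less spread in INT-fed mice and 1 with more. Tnfrsf22, a decoy receptor of the TRAIL family, had an SD of 0.10 in INT and 0.42 in C (adjusted p = 0.0374). Shroom2, a regulator of cell shape, had 0.04 and 0.23 (adjusted p = 0.0375). Its values were 7.03 to 7.13 (median 7.08) in INT-fed mice and 6.87 to 7.37 (median 7.23) in C-fed mice, a near constant level in INT. Jchain, the joining chain, had 0.49 and 1.41, and Igkv6-23 0.51 and 1.17 (adjusted p = 0.0375 for each). The fifth of them, Cidea, had INT values under the intensity minimum in 6 of 7 mice, so its smaller INT spread is not read as a result. Btnl9, a butyrophilin-like gene, was the 1 with more spread in INT, at 0.25 against 0.05 (adjusted p = 0.0375). These calls are fragile, since no gene was called after median centring, or without any 1 of INT replicates 2, 3, 4 or 7 or C replicates 4, 5 or 7.

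**Figure D5:**
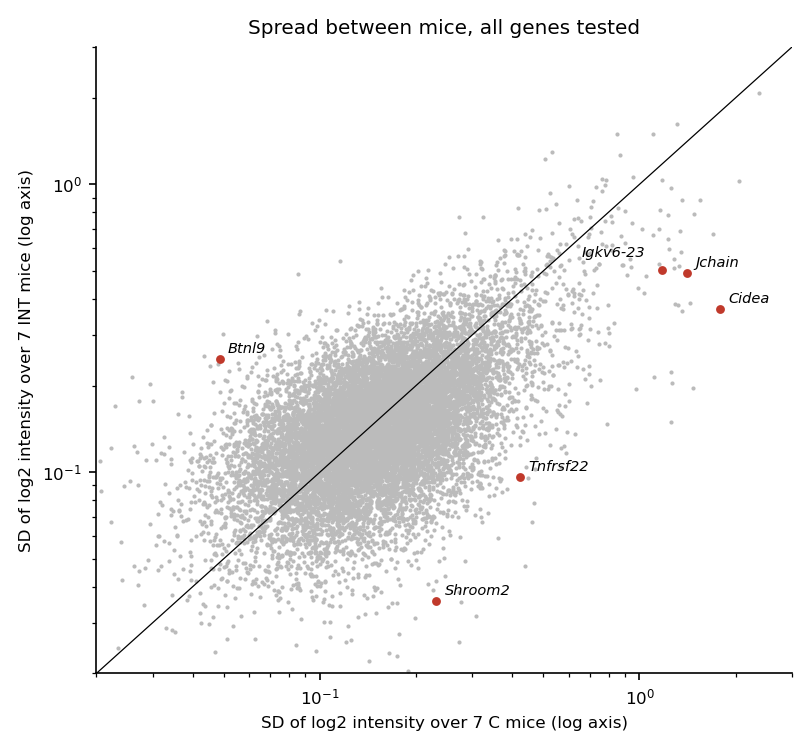
SD of log2 intensity over 7 C mice (x axis) and over 7 INT mice (y axis) for all genes tested, both on log axes, with the line of equal SD. Red points are the 6 genes called for spread, 5 below the line and Btnl9 above it.

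The lists also held different shares of genes with less spread, which are given as counts without a test. Over all genes the SD was smaller in INT-fed mice in 53.6%, and at an unadjusted p under 0.05 the spread was smaller in 4.12% and larger in 2.32%. Immunoglobulin genes had a smaller SD in INT in 14 of 15 cases, with medians of 0.51 in INT and 1.32 in C, and 0.58 in MF and 0.42 in CR. Lipid-associated macrophage genes had it in 11 of 12 (medians 0.22 and 0.60), droplet genes in 12 of 17 (0.17 and 0.28) and female-biased genes in 16 of 19 (0.37 and 0.63). Cholesterol genes did so in 9 of 26 (0.36 and 0.31) and acute phase genes in 15 of 28 (0.25 and 0.24). The immunoglobulin, lipid-associated macrophage, droplet and female-biased lists hold genes under the intensity minimum in most INT mice. They are Igkv6-20, Igkv8-30, Gpnmb, Cidea, Cyp2b13 and Hao2, and a small INT SD of these is not read as a result.

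The remaining gene groups gave no call. Interferon response (32 genes), proteasome (30), autophagy and lysosome (28), endoplasmic reticulum chaperones (25) and sinusoidal endothelium (26) had no gene at an unadjusted p under 0.05. Their medians ran from -0.06 to 0.01. At an unadjusted p under 0.05, where the background was 6.78%, clock output had 2 of 22 genes higher and 3 lower, and xenobiotic P450s and transferases 3 of 37 higher and 4 lower. Oxidative phosphorylation had 4 of 43 genes lower and none higher, with 36 values below 0 but a median of only -0.03. Avpr1a, the vasopressin receptor of hepatocytes, was at 0.71 (SE 0.23, adjusted p = 0.533), with 0.14 among replicates 1 to 4 and 1.47 among replicates 5 to 7. Npas2, a clock transcription factor, was above the intensity minimum in 2 of 7 INT and 6 of 7 C mice. Ugp2, which makes UDP-glucose for glycogen, was at -0.30 (SE 0.09, adjusted p = 0.421). None of the 928 listed genes tested passed the adjusted threshold.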

How the data were processed

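Liver RNA of 27 mice (100 ng each, RNA integrity number above 8.0) was hybridised by the authors to Affymetrix Mouse Gene 1.1 ST arrays, 1 per mouse. The deposited values are log2 intensities, normalized together by the authors with robust multiarray average, which makes the distribution of values alike on all arrays before summarising probe sets. The methods describe probe sets rebuilt for Entrez genes, but the 35556 probe sets in the table are the manufacturer's. Of these, 21218 named a single gene, 1881 several and 12457 none, and the last 2 kinds were left out. For 1386 genes with several probe sets the one of highest mean was kept, which left 18820 genes, 18790 of them named by the GRCm38.p6 gene table. The build behind the probe sets is not given in the sources used here. Tests were run on the 13603 genes that exceeded an intensity of 20 on 5 or more arrays.

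Groups came from the diet in the sample labels. All 27 arrays entered a single linear model (limma 3.58.1 under R 4.3.3, moderated by eBayes), with Benjamini-Hochberg adjustment over all genes and a threshold of 0.05. Errors in brackets are standard errors of the fit (SE), and SD is over mice. Spread was tested by limma on absolute deviations from the diet mean, and profiles by exact permutation over splits of the mice, one-sided for the separation of the diets and two-sided for the distance from the diet centre (Python 3.11.15, numpy 2.4.6, pandas 2.3.3, with figures from matplotlib 3.10.9). The code was tested on simulated data. Arrays carry no read depth, so the number of mice and the signal over background limit the precision.

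The members, the 51 gene lists and the tests were chosen with earlier results of these data known. Named genes are the study's own Q-PCR genes, the 15 of lowest p in each direction, the 10 of largest difference in each direction among genes without overlap, and up to 4 per list by p, of which a part is printed. The text also names 8 genes chosen after their values were seen (Cdkn1a, Cish, Hmgcs1, Hsd3b5, Igfbp2, Igkc, Mmp12 and Rnf43). Alternatives covered the intensity minimum, centring, variance models, blocks, probe set choice, replicate sets and each mouse left out.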

Additional observations from a re-analysis of the deposited data

Results flagged for a closer look

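Among 186 sets of values, each 1 named gene on the C or the INT diet, 12 held a mouse set apart from the other 6 by Dixon's test. Chance alone gives about 1 in 20. C replicate 5 was the mouse apart in 5 of them, all genes of macrophages, at 6.53 for Capg, 9.13 for Cd68, 7.29 for Gpnmb, 8.40 for Lgals3 and 7.77 for Pla2g7 (log2 intensity), in each case the highest C mouse. C replicate 6 was lowest for Btnl9 at 6.47 and highest for Enho at 5.45. On the INT diet, replicate 1 was lowest for Hsd3b5 at 8.67 and for Rassf4 at 5.85. Replicate 7 was lowest for Lgals3 at 6.63 and for Npas2 at 3.95, and replicate 5 was highest for Qpct at 7.23. What sets these mice apart was not tested.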

How the results depend on the processing

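No gene was called for its mean under any of 30 alternatives, and the lowest adjusted p was 0.0583, without C replicate 1. The replicate block also called 0 genes and had 1052 at an unadjusted p under 0.05. INT and C mice of one replicate number correlated from -0.01 to 0.26 in their deviations, with 6 of the 7 pairs over 0.1. The labels name no pairing, so the permutations left the mice unpaired, and their p-values take no account of such a link. Of the INT mice 4 of 7 correlated best with the C mouse of their own number, a hint from the data and not from the design. Genes at an unadjusted p under 0.05 numbered 482 within replicates 1 to 4 and 223 by the analysis of variance with Tukey's post-test. Genes without overlap numbered 391 within replicates 1 to 4, 1712 within replicates 5 to 7 and 38 to 68 with each mouse left out, as fewer mice leave fewer chances to overlap. Genes called for spread numbered 0 after median centring, 1 after cyclic loess, 0 with only the INT and C arrays, 3 within replicates 1 to 4, 0 within replicates 5 to 7, 0 on squared deviations and 0 to 8 with each mouse left out. The profile separation ran from 0.00378 to 0.00923 with each mouse left out. Of 2763 alternative values of 93 named genes 8 changed sign: Btnl9 (-0.0334), Mogat1 (0.178), Rnf43 (-0.0148), Timp1 (0.0231) and Tnfrsf22 (0.105) within replicates 1 to 4, Fgf21 (-0.0496) within replicates 5 to 7, and Tnfrsf22 without C replicate 5 or 7, where leaving out each mouse in turn gave -0.152 to 0.0365. The cause of these shifts was not tested. Counts of list members above or below 0 were taken under both centrings and without C replicate 4, C replicate 5 or INT replicate 3. They were added after the data had been seen. For the 12 lists examined they stayed within 1.5 times the reported count. That bound is wide, since for some lists a count near the share of all genes would still meet it. It therefore does not show that a lean held.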
